A study of Mus musculus with 9 samples.

Results

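The Slc25 genes encode mitochondrial solute carriers. They were taken from the table as every row whose symbol is Slc25a followed by a number, which gave 47 genes of 23309 symbols. Of these, 34 reached 1 FPKM in at least 3 of the 9 libraries and were tested, and 13 did not. FPKM is a fragment count divided by transcript length and by the library's mapped fragments, so levels of different genes are per length. RNA came from podocytes, the epithelial cells that cover the glomerular capillaries, isolated as GFP-positive cells from wildtype mice aged 7 to 8 weeks that combine an mTmG reporter allele with a podocyte Cre. Recombined cells carry membrane GFP, and all 3 groups carry both alleles. The groups, with 3 libraries each, received PBS, or a treatment abbreviated ADR and were collected on day 9 (ADR_D9) or day 14 (ADR_D14) after it.

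Carriers of this family sit in the inner mitochondrial membrane, apart from a few in peroxisomes or the outer membrane. Each folds from repeats of a short domain and exchanges or imports a small molecule: ADP for ATP, phosphate, metabolites of the citrate cycle, amino acids, cofactors or iron. The ADP/ATP and phosphate carriers serve ATP synthesis, and the oxoglutarate and aspartate/glutamate carriers form the shuttle that brings reducing equivalents of cytosolic NADH into the matrix. Podocytes hold mitochondria in the cell body and major processes, and defects in several mitochondrial genes cause podocyte disease.

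All 10 podocyte markers read were above 1 FPKM in every library. Without Cdkn1c, the most abundant marker by mean, the other 9 summed to 1526, 2174 and 1407 FPKM in the 3 day 14 libraries and to 4370 to 10174 in PBS and day 9 libraries. Cdkn1c was at 1409 FPKM in ADR_D14 replicate 1 and at 3742 to 10665 in the other 8. ADR_D14 replicate 1 stood apart in markers of other cells. Its proximal tubule markers summed to 3243 (11 of 12 at 1 FPKM or more), against 15.4 to 164 elsewhere, and Kap, at 17.7 FPKM there, was listed at 0 in the other 8 libraries. Its markers of distal tubule, loop and duct summed to 12455 (9 of 9), against 2.67 to 565. ADR_D9 replicate 3 had the highest endothelial sum, 3133 (10 of 10), next to 771 in ADR_D14 replicate 1 and at most 27.3 elsewhere. Leukocyte markers summed to 2000 and 1330 in ADR_D14 replicate 1 and ADR_D9 replicate 3 and to at most 78.4 elsewhere. ADR_D14 replicates 2 and 3 had tubule sums no higher than the PBS libraries' highest. Relative depth, read from the steps of low values with PBS replicate 2 set to 1, was 1 to 1.085 in PBS, 0.786 to 0.889 on day 9 and 0.239 to 0.569 on day 14, lowest in ADR_D14 replicate 1. Transcripts of 4 Y-linked genes summed to 53.6 FPKM or more in the 3 PBS libraries, ADR_D9 replicate 1 and ADR_D14 replicate 2, and to at most 1.06 in the other 4. In bulk RNA, fewer cells of a type and less RNA per cell cannot be told apart.

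With PBS, the transcripts of 3 carriers of ATP synthesis led the family. Slc25a5, an ADP/ATP carrier, was at 859, 772 and 837 FPKM (822.9 ± 45.1, SD, n = 3). Slc25a4, the ADP/ATP carrier of heart and muscle, was at 535, 497 and 564 FPKM (532 ± 33.6). Slc25a3, the phosphate carrier, was at 530, 499 and 488 FPKM (506 ± 21.99). Slc25a5 lay above the other two in every PBS library, while the ranges of Slc25a4 and Slc25a3 overlapped. Together these 3 made up 68.5 to 72.2% of the summed FPKM of the family. The third ADP/ATP carrier, Slc25a31, known from testis, stayed at or below 0.0232 FPKM in all 9 libraries. The family as a whole took 0.440 to 0.458% of the column totals with PBS.

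A second tier of carriers followed. Slc25a25, an ATP-Mg/phosphate carrier whose relatives are regulated by calcium, was next at 171 ± 32.9 FPKM, and Slc25a11, the oxoglutarate carrier that exchanges it for malate, at 111 ± 26.5. Their PBS ranges did not overlap. Slc25a17, a peroxisomal carrier of cofactors (68.7 ± 1.38), Slc25a39, linked to glutathione import (65.1 ± 17.5), Slc25a1, the citrate carrier (62.3 ± 3.12), and Slc25a28, mitoferrin-2 (62.3 ± 46.8), came next. Their order is not resolved, since the range of Slc25a39, 52.0 to 84.9 FPKM, spans the values of Slc25a17 and Slc25a1. Slc25a20, the carnitine/acylcarnitine carrier of fatty acid oxidation, was at 50.3 ± 3.31 and Slc25a12, the aspartate/glutamate carrier of excitable tissues, at 47.6 ± 6.99, with overlapping ranges. In all, 10 members had a PBS mean over 50 FPKM, 6 between 10 and 50, 18 between 1 and 10, and 13 below 1.

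In the aspartate/glutamate pair Slc25a12 and Slc25a13 and in the mitoferrin pair, 1 member held most of the RNA with PBS. This does not hold for every set of carriers that share a substrate. The ATP-Mg/phosphate carriers Slc25a23 and Slc25a24 were close, at 7.07 ± 1.22 and 6.31 ± 1.51 FPKM. Slc25a12 was at 40.5 to 54.4 FPKM with PBS and Slc25a13, its liver-type partner, at 1.35 to 1.64, a ratio of 24.6 to 35.9. Slc25a28 was at 101, 74.9 and 10.4 FPKM and Slc25a37, mitoferrin-1 of red cell precursors, at 4.72, 3.85 and 3.33. Slc25a28 in PBS replicate 3 was thus far below the other two, and so was Slc25a33, a pyrimidine nucleotide carrier, at 23.4, 14.9 and 1.56 FPKM. These are 2 of 34 members that lay under 1/3 of both other PBS libraries in PBS replicate 3, as did 618 of the 9788 genes tested. The log2 changes of both, given below where needed, rest on that library.

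**Figure D1:**
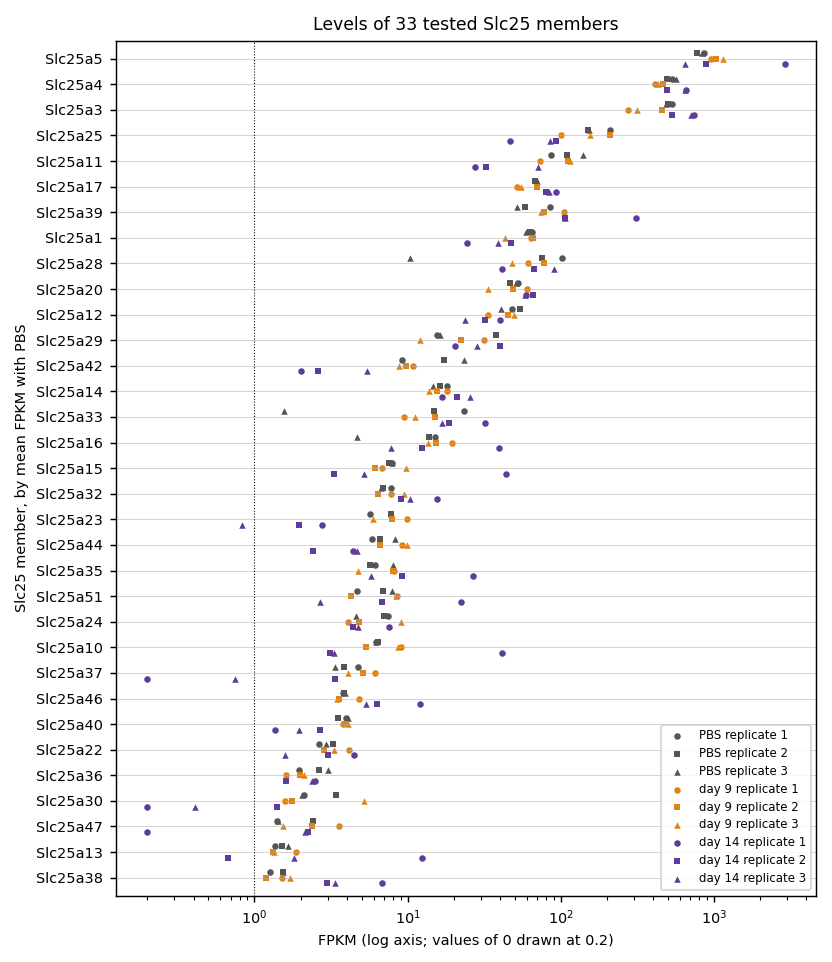
FPKM (log axis, zeros drawn at 0.2) of 33 tested Slc25 members in all 9 libraries, ordered by mean with PBS; colours are groups and marker shapes replicates. Slc25a5, Slc25a4 and Slc25a3 stay above 100 FPKM in all 9 libraries, and ADR_D14 replicate 1 (purple circle) is the highest point for many of the lower members.

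The 7 members that passed a test below split into carriers lower on day 14 (Slc25a11, Slc25a23, Slc25a25, Slc25a42 and Slc25a44) and carriers higher on it (Slc25a38 and Slc25a3). Promoters are shown for the 2 members that fell on day 14 against both other groups and for the member that rose against both. They are the 250 bases before the RefSeq start, 5′ to 3′ on the gene's strand, from the RefSeq table of GRCm38.p6. The values come from files on mm9, and no coordinate was carried between builds.

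Slc25a23 (chr17:57059864-57060113, minus strand): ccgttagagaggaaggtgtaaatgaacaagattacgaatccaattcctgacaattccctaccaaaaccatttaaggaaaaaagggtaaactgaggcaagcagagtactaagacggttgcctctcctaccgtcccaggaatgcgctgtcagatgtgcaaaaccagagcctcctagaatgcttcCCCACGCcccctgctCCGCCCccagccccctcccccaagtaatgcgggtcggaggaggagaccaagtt

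Slc25a42 (chr8:70212282-70212531, minus strand): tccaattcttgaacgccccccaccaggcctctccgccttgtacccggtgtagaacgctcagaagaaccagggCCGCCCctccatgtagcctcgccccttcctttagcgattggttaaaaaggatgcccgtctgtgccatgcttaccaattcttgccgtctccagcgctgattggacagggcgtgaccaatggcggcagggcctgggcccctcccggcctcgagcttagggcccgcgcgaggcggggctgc

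Slc25a38 (chr9:120110132-120110381, plus strand): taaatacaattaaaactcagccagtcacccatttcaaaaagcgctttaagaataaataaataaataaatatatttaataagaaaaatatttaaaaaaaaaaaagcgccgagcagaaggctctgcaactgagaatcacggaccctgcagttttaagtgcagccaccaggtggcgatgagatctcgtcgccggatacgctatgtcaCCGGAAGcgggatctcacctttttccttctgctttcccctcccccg

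Capitals mark matches, on either strand, to CCGGAAG (the ETS core), GGGCGG (GC box) or GCGTGGG (a form bound by EGR1 and WT1). A GCGTGGG match can share its last letters with GGGCGG, which does not occur in these windows. Slc25a23 holds a GC box and a GCGTGGG match, Slc25a42 a GC box, and Slc25a38 a CCGGAAG match that ends 39 bases before the start. The GC content was 52.4%, 63.6% and 41.6%. A window was matched for 36 of the 47 members, 6 of the 7 named above among them. GGGCGG was present in 24 of the 36 and in 32.7% of all 32851 windows, CCGGAAG in 6 and in 6.91%, and GCGTGGG in 5 and in 4.3%. The member counts use only the first listed window of each member, while the percentages count every listed window of every gene. They are therefore no matched background, and no enrichment is read from them. Of the 6 matched members that passed a test, GGGCGG was found in Slc25a11, Slc25a23, Slc25a25, Slc25a42 and Slc25a3, CCGGAAG in Slc25a38 and Slc25a3, and GCGTGGG in Slc25a23. These are matches of letters only.

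On day 9 no carrier passed the test against PBS. The test was limma on log2(FPKM + 1) with Benjamini-Hochberg adjustment over all 9788 genes at an adjusted p under 0.05, and 0 genes (0%) passed it. At an unadjusted p under 0.05, limma counted 0 of 34 members and 304 of all genes (3.11%), and no count test applies to FPKM. Log2 changes below are differences of log2(FPKM + 1), which shrinks the changes of weakly expressed genes, and the median change of all genes tested was subtracted. That median was 0.04 here, −0.15 for day 14 against PBS and −0.22 for day 14 against day 9, while each p tests the change before subtraction. The 34 members had a median relative change of −0.02, with a range of −0.66 to 0.58 and 15 of 34 above 0.

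The 3 abundant carriers were the only members whose day 9 and PBS libraries did not overlap. Slc25a3 was at 276, 455 and 314 FPKM on day 9, below all PBS values, with a relative log2 change of −0.60 ± 0.25 (SE; limma adjusted p = 1). Slc25a4 was at 411, 467 and 432 FPKM, also below all PBS values, with a change of −0.32 ± 0.21. Slc25a5 was at 957, 1026 and 1155 FPKM, above all PBS values, with a change of 0.31 ± 0.49. This SE pools all 9 libraries, the wide day 14 values of Slc25a5 included. Without ADR_D14 replicate 1 it was 0.20 (limma adjusted p = 0.78). By range, 1 member lay above PBS, where 6.77% of all genes did, and 2 below, where 6.63% did. The 2 ADP/ATP carriers thus lay on opposite sides of PBS on day 9.

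Ratios within a library, chosen after the values were seen and so given without a test, do not depend on the scaling of the library. Slc25a5 over Slc25a4 was 1.60, 1.55 and 1.48 with PBS and 2.33, 2.20 and 2.68 on day 9. The separation of these ratios follows from the values above, and the means were 1.547 ± 0.0608 and 2.402 ± 0.246 (SD, n = 3). On day 14 the ratio was 4.38, 1.82 and 1.001, so that the 3 libraries surrounded both other groups. Slc25a3 over Slc25a4 was 0.991, 1.002 and 0.865 in PBS libraries, 0.673, 0.9752 and 0.727 at day 9, and 1.126, 1.0885 and 1.081 at day 14. These last ratios were the 3 highest of the 9. Slc25a5 has near-identical processed copies in the mouse genome, and how reads mapping to several places were handled is not given in the sources used here.

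**Figure D2:**
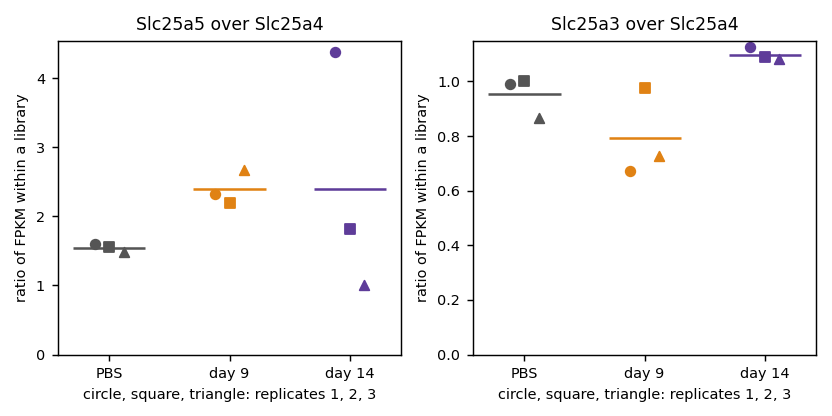
Ratio of FPKM within each library for Slc25a5 over Slc25a4 (left) and Slc25a3 over Slc25a4 (right); points are replicates and lines group means. The day 9 points of the left plot, 2.20 to 2.68, lie above the PBS points, 1.48 to 1.60, while day 14 runs from 1.001 to 4.38; the day 14 points of the right plot, 1.081 to 1.126, are the highest.

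The other carriers overlapped PBS on day 9. Among citrate cycle and amino acid carriers, Slc25a1 was at 64.4, 66.3 and 43.3 FPKM, Slc25a11 at 73.7, 111 and 116, and Slc25a12 at 33.5, 45.0 and 49.1, each overlapping PBS. The lowest relative change of the family was that of Slc25a42, a carrier of coenzyme A, at −0.66 ± 0.39. It was at 10.8, 9.74 and 8.80 FPKM on day 9 and at 9.17, 17.3 and 23.5 with PBS, so the day 9 libraries were close together and the PBS libraries were not. Slc25a37 was at 6.12, 5.11 and 4.08 FPKM on day 9. Red cell markers summed to 548 FPKM in ADR_D9 replicate 1 and 248 in ADR_D9 replicate 3, against 0.350 in ADR_D9 replicate 2 and 0.563 to 5.45 with PBS. Their part in these values was not tested.

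By day 14, Slc25a11, Slc25a23, Slc25a25 and Slc25a42 were lower than with PBS and Slc25a38 was higher, a share of the family near that of all genes. Of the 34 members, 5 (14.7%) passed limma's test, where 17.1% of all 9788 genes did. In the higher direction there was 1 member (6.32% of all genes) and in the lower direction there were 4 (10.7%). The relative changes of the members had a median of 0.42, against 0 for all genes by construction. They ran from −1.86 to 1.39 and were above 0 for 21 of 34. This median and count rest in part on ADR_D14 replicate 1. Without it Slc25a10 (−0.62), Slc25a13 (−0.04), Slc25a15, Slc25a22 and Slc25a51 were below 0 instead of above. Slc25a47 alone went the other way. The middle 50% of all genes lay between −0.55 and 0.64. By range, 7 members lay above all PBS libraries (15.6% of all genes did) and 9 below (23.8%). Scaling matters for the direction. Scaled by medians of ratios the members split into 2 higher and 2 lower (all genes 859 and 766), and set to a common total into 0 and 6 (all genes 414 and 1679), against 1 and 4 (all genes 619 and 1051) on the values as deposited.

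Among the ATP-Mg/phosphate carriers, which load the matrix with adenine nucleotides, 2 of 3 tested members fell. For this and the counts by role that follow, 10.7% of all genes fell and 6.32% rose, and with so few members per role nothing is read from the counts. Slc25a23, which is regulated by calcium, had PBS values of 5.67, 7.76 and 7.79 FPKM and day 14 values of 2.76, 1.94 and 0.833. Every day 14 value was less than the lowest PBS value, and the relative change was −1.41 ± 0.33 (SE; limma adjusted p = 0.0196). Without ADR_D14 replicate 1 it was −1.62 (limma adjusted p = 0.0138). Slc25a25 had PBS values of 208, 151 and 152 FPKM and day 14 values of 46.8, 93.3 and 84.7, again with no overlap. Its change was −1.07 ± 0.35 (limma adjusted p = 0.0466), and −0.75 (limma adjusted p = 0.0816) without ADR_D14 replicate 1, its lowest library. The third, Slc25a24, did not pass (−0.01 ± 0.34), at 7.39, 6.96 and 4.58 FPKM in the PBS libraries and 7.597, 4.42 and 4.73 on day 14. The fourth, Slc25a41, did not reach the expression limit.

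Of the di- and tricarboxylate carriers, 1 of 3 tested members fell. Slc25a11, the oxoglutarate carrier, had PBS values of 85.9, 109 and 139 FPKM and day 14 values of 27.5, 32.7 and 70.6. The groups did not overlap, and the change was −1.28 ± 0.38 (limma adjusted p = 0.0346), or −0.998 (limma adjusted p = 0.0652) without ADR_D14 replicate 1. Slc25a1, the citrate carrier, lay below PBS in all 3 libraries, at 24.4, 47.6 and 38.8 FPKM, but did not pass (−0.64 ± 0.28, limma adjusted p = 0.0877). Slc25a10, the dicarboxylate carrier, had PBS values of 6.18, 6.44 and 6.18 FPKM and day 14 values of 41.6, 3.13 and 3.30. A single library was high there and the other two were below all PBS values. Its change of 0.47 ± 0.79 became −0.62 without ADR_D14 replicate 1 (limma adjusted p = 0.0629).

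The aspartate/glutamate carriers, the other component of the malate-aspartate shuttle, did not pass. Slc25a12 had PBS values of 47.8, 54.4 and 40.5 FPKM and day 14 values of 40.1, 32.2 and 23.5, just below PBS without overlap (−0.43 ± 0.26, limma adjusted p = 0.153). Slc25a13 was at 12.3, 0.674 and 1.80 FPKM on day 14, high in ADR_D14 replicate 1 alone (0.81 ± 0.64, and −0.04 without that library). The glutamate carrier Slc25a22 stayed between 1.59 and 4.47 FPKM in all 9 libraries.

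In the cofactor and nucleotide group, 1 of 8 tested members fell. Slc25a42, which brings coenzyme A into the matrix, had PBS values of 9.17, 17.3 and 23.5 FPKM and day 14 values of 2.03, 2.61 and 5.47. The groups did not overlap although PBS itself varied widely, and the change was −1.86 ± 0.39 (limma adjusted p = 0.0161), the largest fall in the family. It was −1.61 (limma adjusted p = 0.0254) without ADR_D14 replicate 1. Slc25a17 (79.6 to 93.5 FPKM on day 14) and Slc25a32, a carrier of folate (9.05 to 15.4), lay above all their PBS libraries without passing. Slc25a33, at 32.0, 18.7 and 16.7 FPKM, overlapped PBS.

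Among amino acid carriers, 1 of 4 tested members rose. Slc25a38 brings glycine into the matrix for the first step of heme synthesis. It had PBS values of 1.26, 1.54 and 1.54 FPKM and day 14 values of 6.76, 2.96 and 3.33, above every PBS value by a clear margin but low in all libraries. The change was 1.21 ± 0.29 (limma adjusted p = 0.0368), and 0.93 (limma adjusted p = 0.0338) without ADR_D14 replicate 1, its highest library. Slc25a44, a carrier of branched-chain amino acids, was below PBS in all 3 libraries, at 4.39, 2.42 and 4.69 FPKM against 5.88, 6.64 and 8.24, and did not pass (−0.59 ± 0.29, limma adjusted p = 0.112). Slc25a15, the ornithine carrier, was at 44.1, 3.30 and 5.19 FPKM on day 14, against 7.59 to 7.93 with PBS.

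None of the 4 iron and glutathione carriers passed. Over the alternatives given at the end, Slc25a39 passed against PBS in 2 of 22. Slc25a37 and Slc25a40 did so in 1 of 21 each, and Slc25a28 in 0 of 22. Slc25a39 was singled out after its values were seen, as the member with the highest relative change. It had PBS values of 84.9, 58.5 and 52.0 FPKM and day 14 values of 311, 106 and 106, without overlap (1.39 ± 0.42, limma adjusted p = 0.0763; 0.89 without ADR_D14 replicate 1). Its relative Slc25a40 lay below PBS, at 1.36, 2.67 and 1.95 FPKM against 3.53 to 4.07. Slc25a37 was listed at 0 in ADR_D14 replicate 1 and at 3.34 and 0.742 FPKM in the other two (−1.18 ± 0.48, limma adjusted p = 0.0869). Slc25a28 was at 41.4, 66.7 and 90.9 FPKM, within the PBS range, with a change of 0.67 ± 0.74 that became −0.29 without PBS replicate 3.

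The abundant carriers did not pass against PBS. Slc25a3 was at 744, 535 and 704 FPKM on day 14, above all PBS values, the highest of which was 530 (0.52 ± 0.25, limma adjusted p = 0.331). Slc25a4 was at 661, 491 and 651 FPKM (0.31 ± 0.21), overlapping PBS. Slc25a5 was at 2892, 892 and 652 FPKM, at once the highest and the lowest of its values in all libraries (0.68 ± 0.49, and 0.06 without ADR_D14 replicate 1). Slc25a20 lay above PBS at 58.9, 65.7 and 58.2 FPKM without passing (0.42 ± 0.24, limma adjusted p = 0.449). Slc25a46, an outer membrane member tied to mitochondrial shape, was at 12.04, 6.28 and 5.34 FPKM against 3.81 to 3.92 with PBS.

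**Figure D3:**
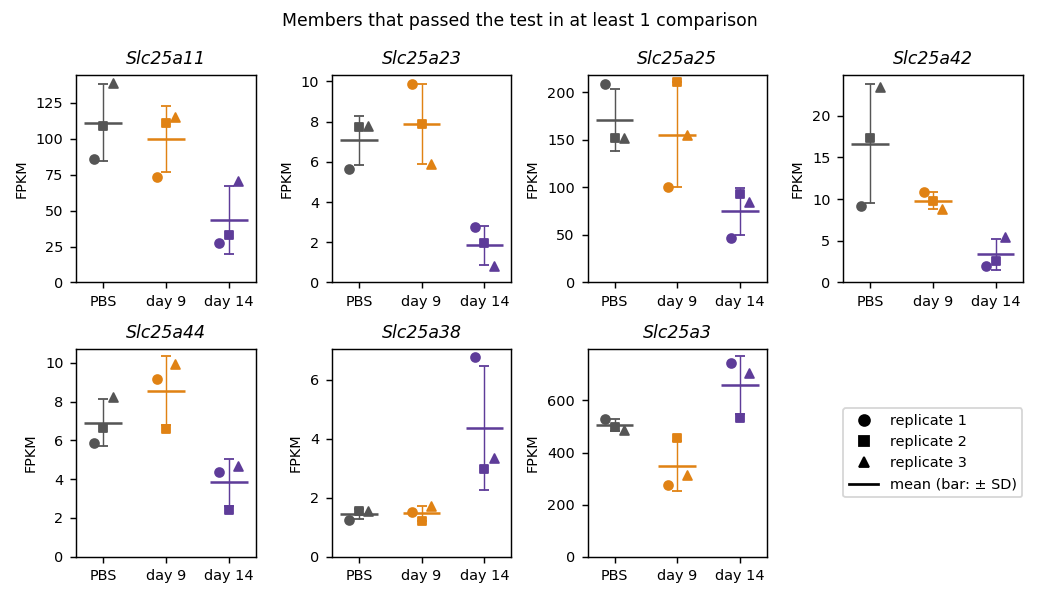
FPKM by library of the 7 members that passed limma's test in at least 1 comparison; lines are group means and bars SD, each axis starting at 0. For Slc25a11, Slc25a23, Slc25a25, Slc25a42 and Slc25a44 the day 14 points lie below all others, and for Slc25a38 and Slc25a3 above them.

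How many members passed rests on single libraries and on the model. It was 0 without PBS replicate 2 or PBS replicate 3, with only the 2 groups in the fit, with a term for the Y-linked transcripts, or with the trend on transcript length and GC content removed (all genes 0, 150, 470, 0 and 602). It was 2 without PBS replicate 1, ADR_D9 replicate 2 or the filter on low values (all genes 1121, 1081 and 997), and 3 without ADR_D9 replicate 3 or ADR_D14 replicate 1 (all genes 1471 and 1845). Over all genes, length and change on day 14 against PBS had a Spearman correlation of −0.331 across 9732 genes, which are not independent replicates.

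Against day 9, day 14 gave 5 passing members of 34 (14.7%), where 15.7% of all genes passed. The phosphate carrier and the glycine carrier rose, making 2 members higher (5.71% of all genes), and 3 were lower (9.98%). This comparison shares its day 14 libraries with the one against PBS, so the values stand side by side and are no second support. By range 7 members lay above day 9 (13.2% of all genes) and 8 below (24.6%). The median relative change was 0.36, with a range of −1.47 to 1.27 and 23 of 34 above 0. Here too the median and count rest in part on ADR_D14 replicate 1. Without it Slc25a5 (−0.23), Slc25a10 (−0.79, limma adjusted p = 0.0293), Slc25a15, Slc25a16, Slc25a22, Slc25a24 and Slc25a51 were below 0 instead of above. Slc25a47 alone went the other way. With medians of ratios the split was 3 higher and 1 lower (all genes 823 and 644), and with a common total 0 and 8 (all genes 393 and 1832), against 2 and 3 (all genes 559 and 977) as deposited.

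Slc25a3 rose from 276, 455 and 314 FPKM on day 9 to 744, 535 and 704 on day 14, with every day 14 library above every day 9 library. The change was 1.16 ± 0.25 (SE; limma adjusted p = 0.0398), and 1.07 (limma adjusted p = 0.053) without ADR_D14 replicate 1. Its PBS libraries, 488 to 530 FPKM, lay between those of the other groups. Slc25a4 was above day 9 in all 3 day 14 libraries and did not pass (0.67 ± 0.21, limma adjusted p = 0.167). Slc25a38 rose from 1.51, 1.19 and 1.71 FPKM to 6.76, 2.96 and 3.33 (1.27 ± 0.29, limma adjusted p = 0.0407; 0.98 and 0.0332 without ADR_D14 replicate 1).

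Slc25a23 fell from 9.89, 7.91 and 5.90 FPKM on day 9 to 2.76, 1.94 and 0.833 (−1.47 ± 0.33, limma adjusted p = 0.0157; −1.69 and 0.012 without ADR_D14 replicate 1). Slc25a42 fell from 10.8, 9.74 and 8.80 FPKM to 2.03, 2.61 and 5.47 (−1.17 ± 0.39, limma adjusted p = 0.047; −0.93 and 0.0748 without ADR_D14 replicate 1). Slc25a44 fell from 9.19, 6.57 and 9.93 FPKM to 4.39, 2.42 and 4.69 (−0.79 ± 0.29, limma adjusted p = 0.0494; −0.87 and 0.0382 without ADR_D14 replicate 1). In each of the 3 the groups did not overlap. Slc25a11 (−1.06 ± 0.38, limma adjusted p = 0.051) and Slc25a25 (−0.82 ± 0.35, limma adjusted p = 0.0759) were lower in every library and did not pass here.

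**Figure D4:**
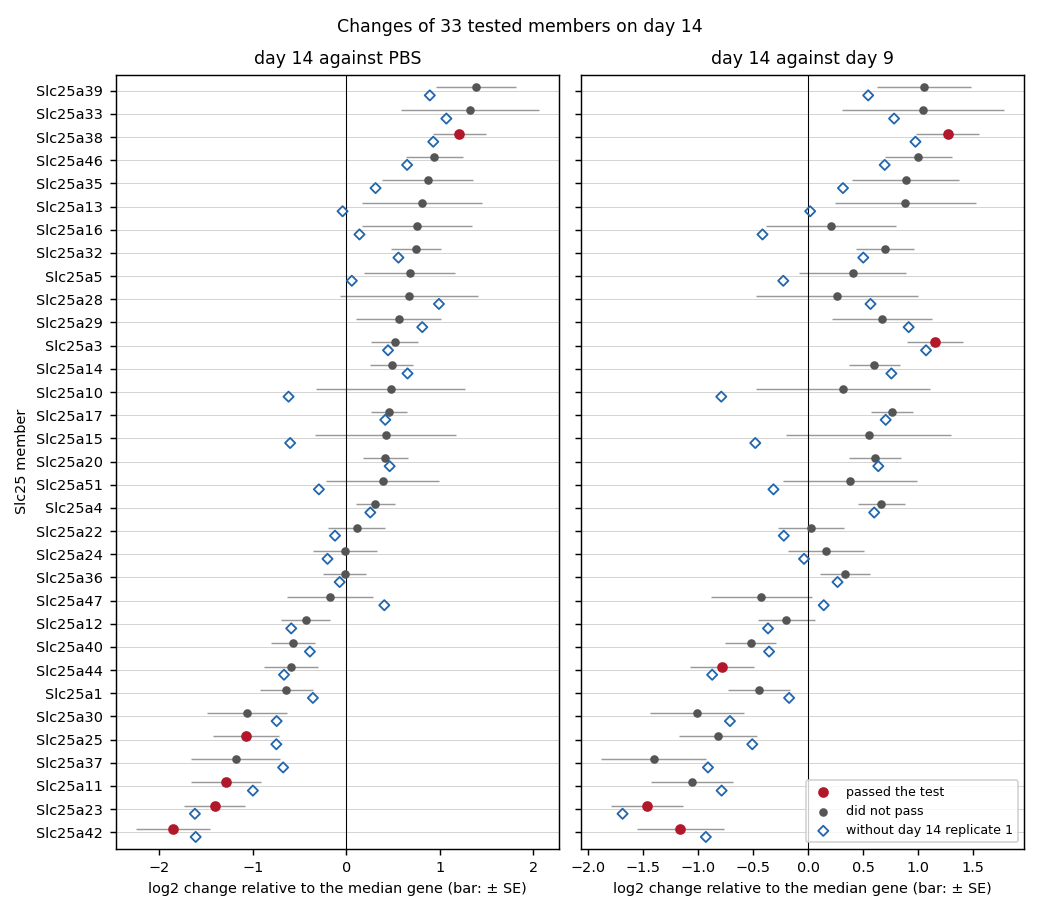
Relative log2 change with SE of 33 tested members on day 14 against PBS (left) and against day 9 (right); red points passed limma's test, and open diamonds give the change without ADR_D14 replicate 1. Without that library Slc25a10 moves from 0.47 to −0.62 on the left, while Slc25a23 moves from −1.41 to −1.62.

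The count was 0 without ADR_D9 replicate 1 or with only the 2 groups in the fit (all genes 497 and 262). It was 1 without ADR_D9 replicate 2, ADR_D9 replicate 3, PBS replicate 2 or the filter on low values (all genes 625, 381, 729 and 881). It was 2 without PBS replicate 1 or PBS replicate 3 or with the length and GC trend removed (all genes 1199, 1302 and 435), and 3 with quantile normalization or the Y-linked term (all genes 1212 and 1292).

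Members stood apart from the other 8 libraries most often in ADR_D14 replicate 1, the library with tubule markers. In it 10 of 34 tested members (29.4%) exceeded 2 times the highest of the other 8 libraries, where 8.14% of all genes did. Slc25a13 stood at 6.60 times that value, Slc25a10 at 4.62, Slc25a15 at 4.53, Slc25a39 at 2.94 and Slc25a5 at 2.5. Slc25a16, Slc25a35, Slc25a38 and Slc25a51, the NAD carrier, were at 2.03 to 2.92. In the other direction Slc25a30, Slc25a37 and Slc25a47 were listed at 0 there, which makes 3 members (8.82%) under 0.5 times the lowest other value, against 12% of all genes. The family sum was 5316 FPKM in this library, 2608 and 2720 in the other day 14 libraries, and 2390 to 2814 in the PBS and day 9 libraries. The part of tubule cells, and of the lowest depth, in these values was not tested.

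**Figure D5:**
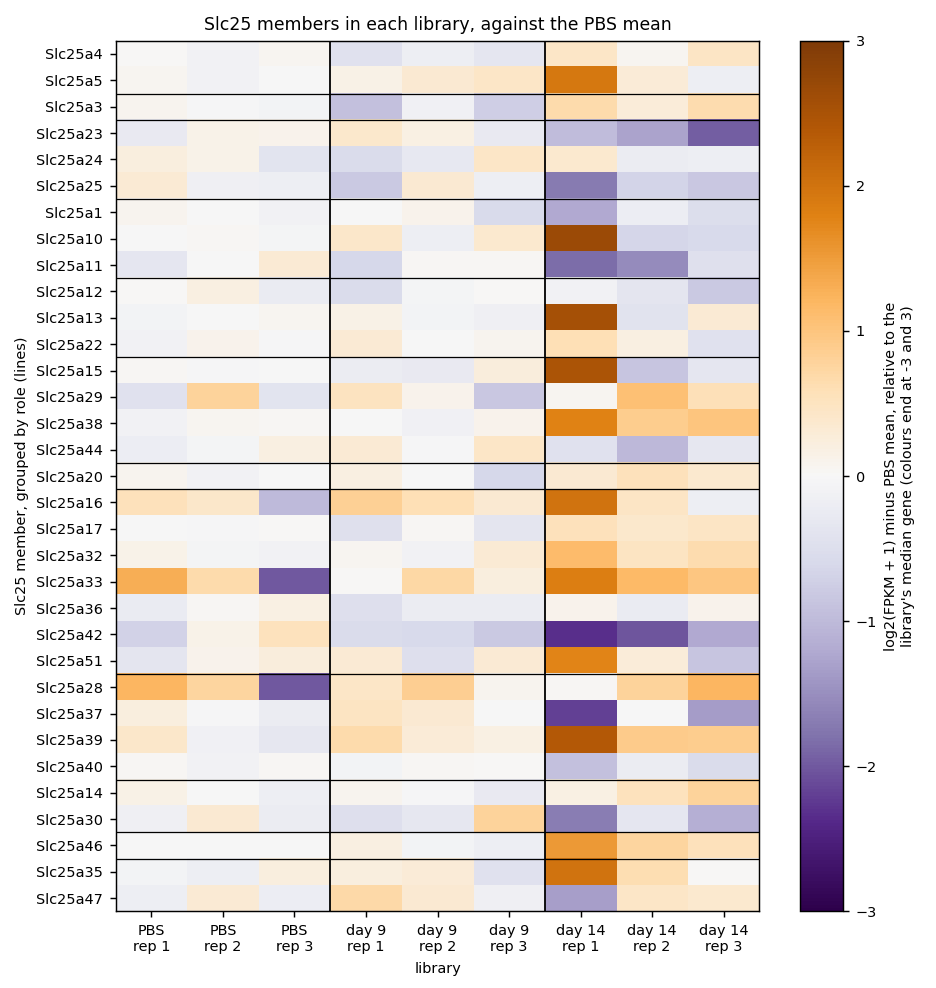
Log2(FPKM + 1) of 33 tested members in each library minus their PBS means, relative to the library's median gene; rows are grouped by role and colours end at −3 and 3. ADR_D14 replicate 1 differs from replicates 2 and 3 in rows such as Slc25a10, Slc25a13 and Slc25a15, while Slc25a23, Slc25a42 and Slc25a38 have the same sign in all 3 day 14 libraries.

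The 13 untested members were near the floor in most libraries. Slc25a54 was listed at 0 in all 9. Slc25a21, the oxodicarboxylate carrier, was at 8.01 FPKM in ADR_D14 replicate 1 and at most 0.122 elsewhere. Slc25a45 was at 26.5 FPKM in ADR_D9 replicate 3, the library with endothelial and leukocyte markers, at 3.84 in ADR_D14 replicate 1 and at most 0.939 elsewhere. Slc25a43 was at 3.78 FPKM in ADR_D14 replicate 1 and at most 0.805 elsewhere. The other 9, Slc25a2, Slc25a18, Slc25a26, Slc25a27, Slc25a31, Slc25a34, Slc25a41, Slc25a48 and Slc25a53, stayed below 1 FPKM in every library. In the RefSeq annotation, the spans of 14 of the 47 members overlap that of another gene, Slc25a11 with Rnf167 and Slc25a3 with Gm24119 among them. Strand and exons of these overlaps were not examined, and use of strand is not given. Whether reads of the other genes enter these values was not tested.

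Other mitochondrial transport genes give the surroundings of these changes. They were read from lists chosen with earlier results of these data known. No list had a member that passed on day 9. On day 14 against PBS, 5 of 15 ATP synthase subunits rose and 0 fell (median relative change 0.88), where 6.32% of all genes rose and 10.7% fell. The same shares apply to the counts that follow, and the 3 outer membrane porins and both pyruvate carriers did not pass. Of 14 tested genes of the machinery that imports carriers, 1 rose: Timm8b, a small intermembrane chaperone, from 125, 92.4 and 122 FPKM to 531, 321 and 273 (1.82 ± 0.33, limma adjusted p = 0.0167). Sfxn1, a serine carrier, was the 1 of 3 sideroflexins that rose (1.37 ± 0.28, limma adjusted p = 0.024). Letm1, a cation exchanger, fell (−0.69 ± 0.21, limma adjusted p = 0.0323), alone of 6 calcium uniporter and exchanger genes, and Abcb10 fell (−1.03 ± 0.34, limma adjusted p = 0.0482), alone of 4 ABC transporters. Of the family members that carry other symbols, 3 were tested and none passed. Of 16 tested matrix enzymes 2 rose, Sucla2 (2.18, limma adjusted p = 0.0158) and Sdhb (1.60, 0.0131), and 2 fell, Ogdh, which consumes oxoglutarate (−0.95, limma adjusted p = 0.02), and Sdha (−1.30, 0.0106). The podocyte markers gave 3 that fell and 0 that rose of 10. Without ADR_D14 replicate 1 the ATP synthase counts were 4 and 0, and the median relative change of that list was 0.49. Timm8b (1.56), Sfxn1 (1.26), Letm1 (−0.54), Abcb10 (−1.37), Sucla2, Sdhb, Ogdh and Sdha passed again without that library. Like those of the carriers, these calls end without PBS replicate 2 and with the Y-linked term, where 0 of 9788 genes passed. Against day 9 the counts of higher and lower members were equal to those against PBS in every list of transport and matrix genes, with Mcu, the pore of the calcium uniporter (−1.14, limma adjusted p = 0.038), in place of Letm1.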

How the data were processed

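RNA-seq of GFP-positive podocytes was analysed from 9 libraries, 3 per group. Per the labels' protocols, ribosomal RNA was depleted with Ribo-Zero. The authors deposited FPKM values in 1 table, with no common column total (572787 to 723288). Per the submitters' processing notes, Bowtie 0.12.7, Cufflinks and the build mm9 were used, with no roles stated. Annotation, strand and multi-mapping were not given in the sources used here. Columns headed control were matched to PBS by replicate number. The labels do not say whether replicates are separate animals, so a p-value covers the spread among these libraries only. Y-linked sums ran from 0.018 to 53.6 FPKM on day 9 and from 0 to 70.5 on day 14. The libraries of an ADR group thus did not all come from 1 animal, though their spread may be technical in part. In PBS the sums ran from 53.7 to 59.3, and the spread there may be wholly technical. Read counts were not used, so no counting interval is given.

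The table has 23813 rows; for the 260 symbols on several rows (no member) the row of highest mean was kept. The 9788 genes that reached 1 FPKM in 3 or more libraries were tested on log2(FPKM + 1) by limma 3.58.1 (R 4.3.3) with a variance trend, the group as the only term and all 9 libraries, two-sided, with Benjamini-Hochberg adjustment per comparison; an adjusted p under 0.05 passed. The procedure was tested on simulated data. Statistics are printed for members that passed a comparison and for a set of main carriers (phosphate, ADP/ATP, citrate, dicarboxylate, oxoglutarate, aspartate/glutamate, acylcarnitine and iron); others are given by levels and counts. From other lists, only genes that passed are named, up to 4 a list. The members and lists were chosen with earlier results of these data known. Alternatives covered the pseudocount, filters, scalings, duplicate rows, the trend, the samples in the fit, a replicate block, each library left out, a Y-linked term and a length and GC trend. No library column was left unmapped. Values of 1 tested member enter the counts and are not reported here.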

Additional observations from a re-analysis of the deposited data

Results flagged for a closer look

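Each result here is a change from day 9 to day 14 that passed limma's test (adjusted p under 0.05), which is also the test of the difference between the 2 ADR groups' changes against the same PBS libraries. The relative log2 differences were 1.16 for Slc25a3 and 1.27 for Slc25a38, both higher on day 14. They were −1.47 for Slc25a23, −1.17 for Slc25a42 and −0.79 for Slc25a44, all lower on day 14. Against PBS, the day 9 and day 14 changes of Slc25a3 were −0.60 and 0.52. Its day 9 libraries were all below PBS and its day 14 libraries all above as deposited. The day 14 margin was small, with 535 FPKM in ADR_D14 replicate 2 against 530 in PBS replicate 1. With quantile normalization the day 14 change against PBS was 0.16 (limma adjusted p = 0.743). Without ADR_D14 replicate 1, Slc25a3 (1.07, limma adjusted p = 0.053) and Slc25a42 (−0.93, limma adjusted p = 0.0748) no longer passed, while Slc25a38 (0.98), Slc25a23 (−1.69) and Slc25a44 (−0.87) did.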

How the results depend on the processing

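Over 22 alternatives, Slc25a42 and Slc25a23 passed against PBS in 17 each, Slc25a11 in 10, Slc25a25 in 7 and Slc25a38 in 9 of 21. Against day 9, Slc25a23 passed in 18, Slc25a38 in 10 of 21, Slc25a3 in 9, Slc25a42 in 8 and Slc25a44 in 5. None of these changed direction. For day 14 against PBS (5 members, 1670 genes), members and genes passing were 2 and 997 without the filter, 0 and 470 with only the groups compared, 0 and 0 with the Y-linked term (limma unadjusted p under 0.05 for 2411 genes), 0 and 602 with the length and GC trend removed, and 3 and 2165 without ADR_D9 replicate 3 and ADR_D14 replicate 1 together. Leaving out 1 library gave 0 to 4 members and 0 to 1885 genes, with 0 genes without PBS replicate 2. For day 14 against day 9 (5 and 1536), they were 1 and 881 without the filter, 0 and 262 with only the groups compared, 2 and 435 with the trend removed, 8 and 2225 with a common total, 3 and 1212 with quantile normalization, 3 and 1292 with the Y-linked term and 2 and 1287 without both doubted libraries. Leaving out 1 library gave 0 to 4 members and 381 to 2124 genes. For day 9 against PBS, 0 members passed under every alternative run. Genes there were 2 without the filter, 1 with only the groups compared and 0 to 1 with 1 library left out. All-gene splits on day 14 against PBS were 710 higher and 755 lower with quantile normalization, and on day 14 against day 9 they were 677 and 535.

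Changes of sign arose in members that did not pass in the fit of all 9 libraries. Those of the main carriers follow, and other members, such as Slc25a24 and Slc25a47, changed sign too. Against PBS, Slc25a4 was −0.0363 with quantile normalization, and Slc25a10 −0.62 and Slc25a13 −0.0394 without both doubted libraries. Leaving out 1 library gave −0.29 to 1.26 for Slc25a28, −0.62 to 1.03 for Slc25a10 and −0.0394 to 1.42 for Slc25a13. Against day 9, Slc25a5 was −0.0437 with quantile normalization, −0.34 with the trend removed and −0.19 without both doubted libraries, Slc25a10 −0.74 and Slc25a13 −0.0695 without both, and Slc25a12 0.11 with the trend removed. Leaving out 1 library gave −0.23 to 0.84 for Slc25a5, −0.79 to 0.87 for Slc25a10 and −0.37 to 0.0009 for Slc25a12. The −0.79 of Slc25a10, without ADR_D14 replicate 1, passed the test (limma adjusted p = 0.0293). The cause of these changes of sign was not tested. Replicate numbers are shared between groups. Deviations of same-numbered libraries correlated at −0.265 to 0.431, over 0.1 in 1 of 9 pairs. Those of differently numbered libraries correlated at −0.523 to 0.458, over 0.1 in 6 of 18. These values gave no sign of pairing by number, but with 3 libraries a group they cannot exclude it. With a replicate block, 4 members and 1301 genes passed against PBS and 2 and 1200 against day 9. Depth is lowest on day 14, and members near 1 FPKM are the least certain there.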
